A study of Mus musculus with 36 samples.

Results

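The visceral fat and the liver of the same 4 mice were set side by side: wild-type (WT) males on a normal chow diet (NCD), numbered 165, 180, 182 and 183, each of which gave a library of epididymal fat (visWAT) and a library of liver. These are 8 of the 36 samples of the series, chosen by tissue, genotype and diet in the sample labels and paired by mouse number, and no measured value entered the choice. The whole study compared WT mice with mice that lack Mlkl in adipocytes (Mlkl Adi-KO), on NCD or a high-fat diet (HFD). Its WT mice were littermates that carried loxP-flanked Mlkl alleles without the Cre transgene (Adipo-Cre, active in adipocytes), on a C57BL/6J background, and the diet was given for 16 weeks from 16 weeks of age. The 8 Mlkl Adi-KO NCD libraries, from 4 other mice on the same diet, served only to see which differences recurred. All values are FPKM, read fragments scaled to gene length and library size, so that levels can be compared between genes.

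Visceral white fat stores triglyceride in lipid droplets of adipocytes, releases it as fatty acids by lipolysis, and secretes hormones such as adiponectin and leptin. The liver makes most plasma proteins and lipoproteins, forms bile acids and urea, releases glucose between meals and chemically modifies drugs and steroids. Both tissues use the same steps of sugar and lipid metabolism, and several of these steps are run by related genes of which each tissue favors a different member.

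The WT libraries held between 23895612 and 30322171 reads on genes in visWAT and between 21626407 and 25530574 in liver. A library with 3 reads of a gene is taken below as the floor of detection, and it covers counting error only. RNA was extracted with different reagents from fat and from liver, a column kit serving for liver, so extraction and tissue cannot be told apart. In these bulk samples, fewer cells of a type and less RNA per cell cannot be told apart either. The visWAT library of mouse 183 held seminal vesicle transcripts, which took 32.5% of its reads, against 0.0385% in mouse 182 and at most 0.000109% in the others. Those genes were set aside. Both libraries of mouse 182 also stood apart from the other 3 mice, in the genes given further below, and results that rest on either mouse are given with and without it.

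At an adjusted p under 0.05, 8989 of 14544 tested genes (61.8%) differed between the tissues, 4327 (29.8%) higher in visWAT and 4662 (32.1%) higher in liver. A call below means this test, limma on log2(FPKM + 1) with the mouse as a block and Benjamini-Hochberg adjustment, and every log2 difference is visWAT minus liver on that scale, which understates the change of low genes. A difference of at least 4-fold on top was met by 1905 genes (13.1%), 774 (5.32%) higher in visWAT and 1131 (7.78%) higher in liver. With so many genes called, the counts of each gene group are read against these shares. Tested genes had a mean of at least 0.5 FPKM over both tissues. A gene near 0 in fat passes this filter on low values only through liver, and the reverse. Counts from lists with many such genes support nothing by themselves. The library sizes behind the deposited FPKM were not the totals of reads: they were 1.01 to 1.37 times the total in visWAT and 0.745 to 0.812 times in liver. On this scale the median tested gene differed by -0.033 in log2. Rescaled to the same sum in every library, the median moved to 0.52, or 0.81 with the seminal vesicle genes left out. The share of calls that were higher in visWAT then went from 48.1% to 72.6% and 81.2%. Directions below are therefore relative to the median gene, and groups whose median changed sign with the scaling are named as such. For genes called here and described below, no visWAT value overlapped the liver values unless a sentence says so. This is common: 29.7% of all tested genes had every visWAT library above every liver library, and 31.4% the reverse.

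The labels of both tissues held up against the summed levels of their defining genes. The 12 listed mature adipocyte markers summed to 13413 to 26482 FPKM in visWAT and 516 to 935 in liver. The 14 hepatocyte markers summed to 60630.5 to 69238 FPKM in liver and 861 to 1978 in visWAT. All 12 of 12 mature adipocyte markers were called higher in visWAT, with a median log2 difference of 6.94. Of the 14 hepatocyte markers, 14 were called higher in liver, with a median of -8.98. Of these, 5 adipocyte markers were under 1 FPKM in every liver library and 9 hepatocyte markers in every visWAT library. They passed the filter on low values largely through their own tissue, so both counts support nothing by themselves. The plot of defining genes shows how far apart the tissues lay.

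**Figure D1:**
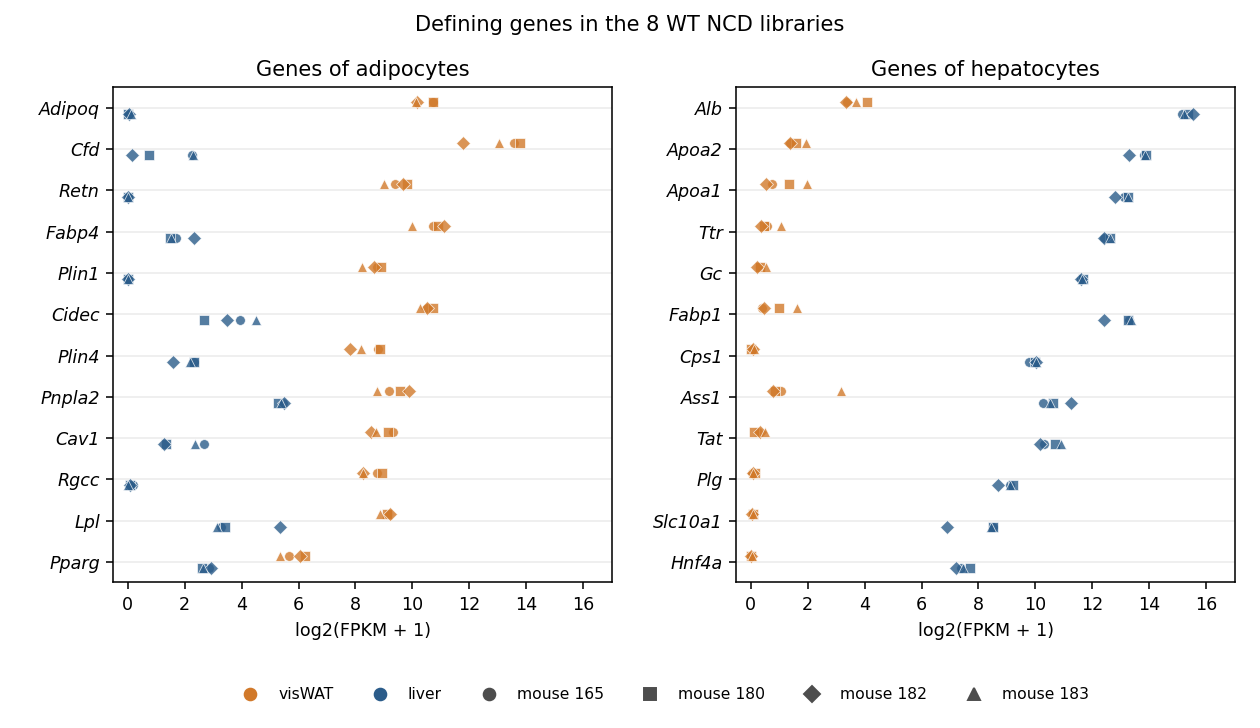
Level of 12 adipocyte and 12 hepatocyte genes in each of the 8 WT NCD libraries, as log2(FPKM + 1), with color for tissue and marker shape for mouse. The visWAT and liver libraries of each gene do not overlap, and Alb reached 47072 FPKM in the liver of mouse 182 against 9.19 in its visWAT.

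Cfd, Adipoq and Retn, all secreted by adipocytes, had the largest differences toward visWAT among called genes that averaged 10 FPKM or more in either tissue, with predicted genes, seminal vesicle genes and genes carried by a single visWAT library left out. Adipoq encodes adiponectin (chromosome 16, 22965286 to 22976778 on mm39) and was read in visWAT at 1700.0, 1675, 1133 and 1114 FPKM in mice 165, 180, 182 and 183, the order kept throughout. In liver it was at 0.0438, 0, 0.0349 and 0.0817 FPKM. Every liver library was under the floor of 3 reads, and every visWAT library was far above it (log2 difference 10.37, SE 0.17, adjusted p = 1.1e-06). Cfd, which encodes the complement protease adipsin, stood at 12032, 14086, 3486 and 8360.4 FPKM in visWAT and 3.74, 0.695, 0.105 and 3.91 FPKM in liver. The lowest visWAT library, mouse 182, was still far above the highest liver library (log2 difference 11.67, SE 0.38, adjusted p = 1.4e-05). Retn, which encodes resistin, was at 672, 904, 808 and 516 FPKM in visWAT and had no read in any liver library. Taking 3 reads in each liver library as the floor, it was at least 6987-fold higher in visWAT (log2 difference 9.47, SE 0.16, adjusted p = 1.2e-06). Rgcc, a regulator of the cell cycle, had a log2 difference of 8.46, from visWAT levels of 429, 485, 308 and 303 FPKM.

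Of 14 tested adipokine genes, 10 were called higher in visWAT and 3 higher in liver. Those toward liver were Rarres2, which encodes chemerin, Rbp4, the plasma carrier of retinol, and Serpina12, which encodes vaspin. Rbp4 was abundant in both tissues, at 337, 382, 623 and 235 FPKM in visWAT and 2782, 2949.8, 2097 and 2869.9 FPKM in liver (log2 difference -2.84, SE 0.35, adjusted p = 0.0014). Serpina12 was at 0.0229, 0.0174, 0.05002 and 0.0265 FPKM in visWAT and at 19.4, 7.16, 0.235 and 19.7 FPKM in liver, where mouse 182 had a small fraction of the others. Its log2 difference was -2.97 with adjusted p = 0.017, and -3.88 without mouse 182. The call was lost without mouse 165, 180 or 183 (adjusted p = 0.068, 0.061 and 0.059).

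Genes of the lipid droplet and of lipolysis mostly favored visWAT: 19 of 26 were called higher there and 4 higher in liver, with a median log2 difference of 1.58. Plin1, the perilipin that coats the adipocyte droplet, was at 429, 473, 404 and 299.6 FPKM in visWAT. It had no read in any liver library, which makes it at least 11392-fold higher in visWAT (log2 difference 8.63, SE 0.14, adjusted p = 1.1e-06). Cidec, which drives the fusion of droplets into a single large one, was at 1465, 1678, 1446 and 1224 FPKM in visWAT and 14.6, 5.35, 10.2 and 21.8 FPKM in liver (log2 difference 6.84, SE 0.38, adjusted p = 8.9e-05). Pnpla2, the triglyceride lipase that starts lipolysis, was expressed in both tissues, 16.3-fold higher in visWAT at 578, 762, 934 and 428 FPKM against 43.1, 38.3, 43.5 and 40.9 FPKM. In the other direction, Cideb, which acts in lipoprotein lipidation, was at 15.6, 16.5, 14.9 and 14.4 FPKM in liver and at most 0.174 FPKM in visWAT. Fitm1, a protein of droplet formation, was at 82.6, 63.5, 8.60 and 115 FPKM in liver, lowest in mouse 182, and at 0.0290, 0.0331, 0.380 and 0 FPKM in visWAT (log2 difference -5.49, SE 0.69, adjusted p = 0.0016).

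Uptake of fatty acids was split between the tissues by gene. Of 28 tested genes, 11 were called higher in visWAT and 14 higher in liver, and the median of -0.60 turned to 0.23 when rescaled to equal sums without seminal vesicle genes. Lpl, which frees fatty acids from circulating lipoproteins at the capillary wall, was at 564, 549, 593 and 467 FPKM in visWAT and 8.80, 9.61, 39.3 and 7.84 FPKM in liver. The liver of mouse 182 was the highest of the livers and still far below every visWAT library (log2 difference 5.29, SE 0.37, adjusted p = 0.0002). Cav1, the coat protein of caveolae, was 158-fold higher in visWAT (log2 difference 7.01, SE 0.26, adjusted p = 2.1e-05). Toward liver, Slc27a2 and Slc27a5, transporters that also activate very long fatty acids and bile acids, were at 562, 530.1, 327 and 523 FPKM and 462, 490.4, 347 and 443 FPKM in liver. Neither passed 0.226 FPKM in any visWAT library.

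Assembly of triglyceride was shared. Of 18 genes, 9 were called higher in visWAT and 6 higher in liver. Dgat2, which adds the last acyl chain, was at 479, 527, 904 and 444 FPKM in visWAT and 212, 227, 128 and 219.7 FPKM in liver, 2.99-fold higher in visWAT (log2 difference 1.55, SE 0.35, adjusted p = 0.012). Dgat1, the other enzyme of this step, was 8.70-fold higher in visWAT (log2 difference 2.96, SE 0.21, adjusted p = 0.00022). Pck1, which supplies the glycerol backbone in fat and starts glucose synthesis in liver, ran the other way, at 724, 611, 231 and 402 FPKM in visWAT and 1844, 1884, 1102 and 1824 FPKM in liver (log2 difference -1.85, SE 0.24, adjusted p = 0.0017). Lpin2, a phosphatidate phosphatase, was 53.7-fold lower in visWAT (log2 difference -4.88, SE 0.1, adjusted p = 2.4e-06).

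Export of plasma proteins dominated the liver libraries. The genes of the plasma protein, apolipoprotein, coagulation and complement lists together took 20.4% to 22.7% of the liver reads and 1.15% to 3.51% of the visWAT reads outside the seminal vesicle genes. All 16 of 16 apolipoprotein and lipoprotein assembly genes and 30 of 31 plasma protein genes were called higher in liver, with medians of -7.35 and -9.15. Of these, 6 of the 16 and 20 of the 31 were under 1 FPKM in every visWAT library. They passed the filter on low values largely through liver, so these counts support nothing by themselves. Alb, albumin (chromosome 5, 90608756 to 90624461 on mm39), was at 35925, 41651, 47072 and 37662 FPKM in liver and 9.47, 16.1, 9.19 and 12.04 FPKM in visWAT, 3467-fold lower in visWAT (log2 difference -11.67, SE 0.22, adjusted p = 1.9e-06). Gc, which encodes the vitamin D-binding protein, was among the steadiest, at 3078, 3224, 3078 and 3174 FPKM in liver and 0.213, 0.261, 0.160 and 0.460 FPKM in visWAT (log2 difference -11.27, SE 0.11, adjusted p = 7.7e-07). Its visWAT values were all under those of Alb. Apoa1 and Apoa2, the main proteins of high-density lipoprotein, had liver levels of 8886, 9779, 7027 and 9628 FPKM and 14319, 14992, 9979 and 14586 FPKM. In visWAT they were at 0.682, 1.53, 0.448 and 2.93 FPKM and 1.62, 2.03, 1.58 and 2.86 FPKM, with log2 differences of -11.95 and -12.12.

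Some plasma proteins were strongly expressed in visWAT too. Trf, transferrin, was at 1121, 1116, 914 and 669 FPKM in visWAT and 5122, 5504, 6964 and 5494 FPKM in liver, 6.04-fold lower in visWAT (log2 difference -2.61, SE 0.28, adjusted p = 0.00088). Apoe was at 2252, 1723, 554 and 1528 FPKM in visWAT and 14134, 14234, 11783 and 14414 FPKM in liver (log2 difference -3.34, SE 0.39, adjusted p = 0.0012), with mouse 182 the lowest of the visWAT libraries. With no filter on low values, neither was called (adjusted p = 0.12 for Trf and 0.25 for Apoe). C3, the central complement component, was at 158, 106, 131 and 104 FPKM in visWAT and 1115, 1227, 1709.6 and 1221 FPKM in liver. These levels are well above the floor of detection in every library.

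Coagulation and complement genes were found on both sides. Of 23 coagulation genes, 15 were called higher in liver and 8 higher in visWAT. In visWAT 14 of the 23 were under 1 FPKM in every library, so the count toward liver supports nothing by itself. F2, prothrombin, was at 445, 470.0, 431 and 458 FPKM in liver and at most 0.0853 FPKM in visWAT. Plg, plasminogen, had a log2 difference of -8.93 (SE 0.12, adjusted p = 7.8e-07). Thbd, the thrombomodulin of vessel walls, went the other way, at 95.2, 80.4, 23.4 and 79.3 FPKM in visWAT and 1.72, 2.31, 2.66 and 1.80 FPKM in liver (log2 difference 4.33, SE 0.42, adjusted p = 0.00061). Plau, urokinase, was 32.4-fold higher in visWAT. Among 27 complement genes, 18 were called higher in liver and 7 higher in visWAT, the latter led by Cfd. In visWAT 11 of the 27 were under 1 FPKM in every library, which limits the count toward liver in the same way. C1qa, a macrophage product, was at 81.1, 74.0, 74.7 and 82.0 FPKM in visWAT and 31.5, 22.4, 47.8 and 28.0 FPKM in liver (log2 difference 1.29, SE 0.20, adjusted p = 0.0032).

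Several regulators that define each cell type differed between the tissues as well. Of 18 hepatocyte transcription factors, 16 were called higher in liver and 1 in visWAT, with a median of -3.66. In visWAT 13 of the 18 were under 1 FPKM in every library. Those passed the filter on low values largely through liver, so the count supports nothing by itself. Hnf4a, the nuclear receptor at the center of hepatocyte identity, was at 167, 207, 146 and 174 FPKM in liver and 0.0291, 0.0133, 0.00765 and 0.0270 FPKM in visWAT (log2 difference -7.41, SE 0.11, adjusted p = 9.4e-07). Creb3l3, a membrane-bound factor of lipid genes, was 1717-fold lower in visWAT. The exception was Cebpa, which works in adipocytes and hepatocytes alike, at 394, 467, 425 and 289.9 FPKM in visWAT and 244, 247, 164 and 259 FPKM in liver (log2 difference 0.78, SE 0.23, adjusted p = 0.032). Cebpa was no longer called without mouse 165, 180 or 182 (adjusted p = 0.1, 0.13 and 0.053). Pparg, the receptor that drives fat cell formation, was at 50.3, 73.4, 65.6 and 39.6 FPKM in visWAT and 6.32, 5.12, 6.55 and 5.33 FPKM in liver (log2 difference 3.06, SE 0.18, adjusted p = 0.0001). Of 12 adipocyte factors 8 were called higher in visWAT, and 3, among them Klf15 and Cebpb, higher in liver. Klf15 was 3.67-fold and Cebpb 2.71-fold lower in visWAT, and Cebpb was no longer called without mouse 165 or 180 (adjusted p = 0.055 and 0.055) or when rescaled to equal sums.

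The sequence before the start sites of Alb, Fabp1 and Adipoq is shown because these genes carry the contrast: albumin and the fatty acid-binding protein of liver on one side, and adiponectin on the other. Each line gives the 200 bases before the start site of the canonical GENCODE vM39 transcript on GRCm39, the build of the deposited files (mm39), in the direction of the gene. Capitals mark matches to 4 motifs: GTTAAT (a half-site of HNF1), TTGCNNAA (C/EBP) and AGGTCA (a nuclear receptor half-site) on either strand, and TATAAA on the strand of the gene.
Alb chr5:90608549-90608748 (plus strand): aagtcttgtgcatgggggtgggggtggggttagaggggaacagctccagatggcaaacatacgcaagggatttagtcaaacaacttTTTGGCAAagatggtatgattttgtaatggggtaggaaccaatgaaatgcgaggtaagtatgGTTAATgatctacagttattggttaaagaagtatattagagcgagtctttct
Fabp1 chr6:71176609-71176808 (plus strand): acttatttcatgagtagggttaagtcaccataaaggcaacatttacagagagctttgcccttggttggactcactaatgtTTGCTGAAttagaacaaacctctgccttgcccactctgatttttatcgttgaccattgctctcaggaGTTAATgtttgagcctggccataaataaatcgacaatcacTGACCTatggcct
Adipoq chr16:22965086-22965285 (plus strand): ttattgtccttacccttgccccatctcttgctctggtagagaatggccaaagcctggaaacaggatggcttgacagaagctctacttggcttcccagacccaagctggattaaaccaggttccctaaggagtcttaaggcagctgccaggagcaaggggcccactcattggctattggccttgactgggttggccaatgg
The Alb window held GTTAAT from base -52 to base -47 counted from the start site, and a C/EBP match from base -114 to base -107. The Fabp1 window held GTTAAT from base -53 to base -48, a C/EBP match from base -120 to base -113 and AGGTCA on the opposite strand from base -13 to base -8. None of the 4 motifs was found in the printed window of Adipoq. Over the windows from 250 bases before to 50 after the start of 21770 protein-coding genes, GTTAAT was found in 6.89%, TTGCNNAA in 10.7%, AGGTCA in 15.1% and TATAAA in 8.95%. In the windows of the 967 genes called at 4-fold higher in liver, the shares were 11.6%, 14.7%, 20.3% and 9%. In those of the 718 genes at 4-fold higher in visWAT, they were 5.29%, 10.4%, 14.1% and 7.24%. A match describes the letters only.

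Paired forms of the same protein gave a comparison that does not depend on the scaling between libraries, since each share is taken within a library. For 28 pairs chosen as a liver form and a form of fat or muscle, the share of the liver form in the FPKM of both was higher in every liver than in every visWAT library in 20 pairs. In 15 pairs the liver form held the majority in all livers and the minority in all visWAT libraries. Both members were called toward their own tissue in 13 pairs.

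**Figure D2:**
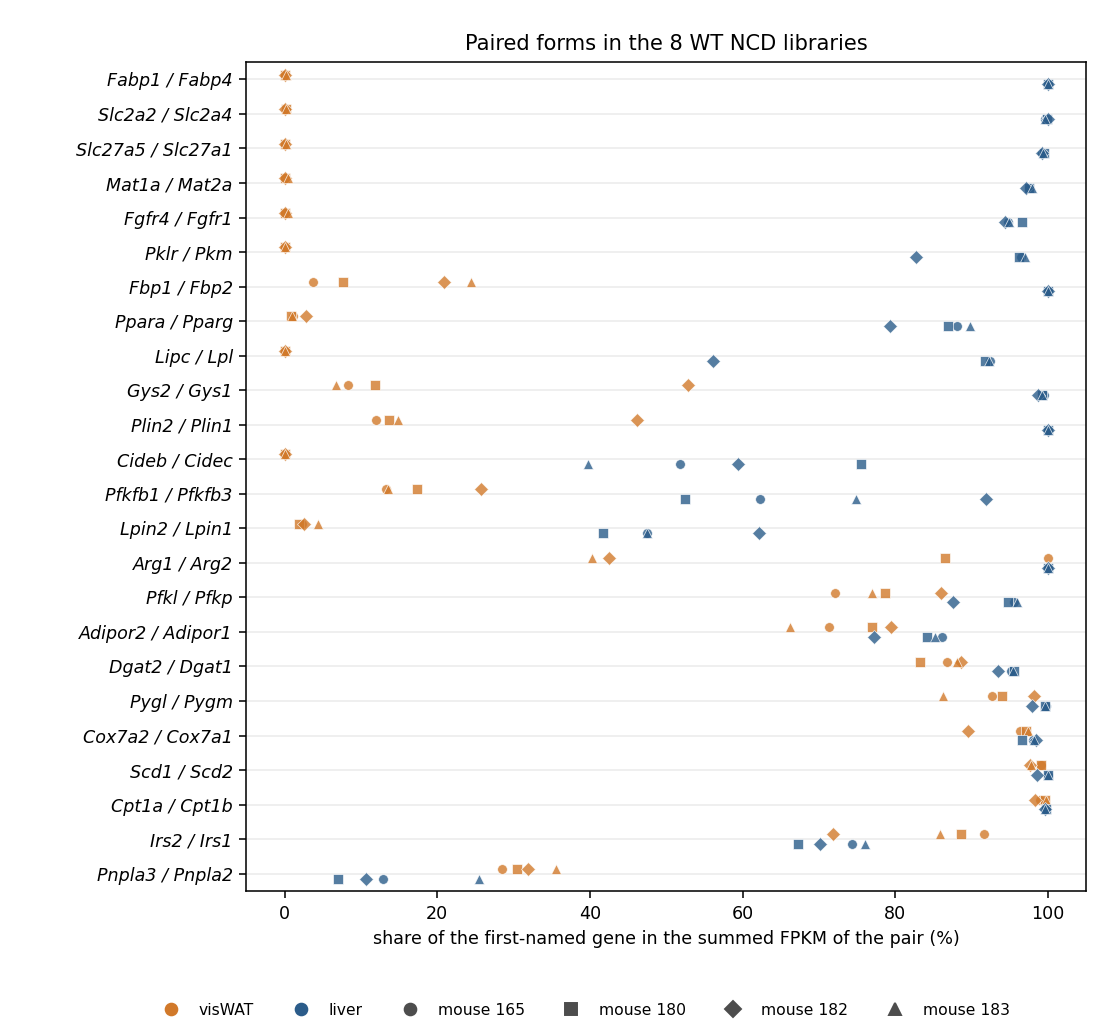
Share of the first-named (liver) form in the summed FPKM of each of 24 of the pairs, in percent, for the 8 WT NCD libraries, with color for tissue and marker shape for mouse, ordered by the difference between tissue means. The uppermost pairs sit at opposite ends of the axis, while Cideb / Cidec, Pfkfb1 / Pfkfb3 and Lpin2 / Lpin1 separate without reaching both ends. The lower pairs, from Arg1 / Arg2 on, lie close together or overlap, and Pnpla3 / Pnpla2 separates in the reverse direction.

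The binding proteins of fatty acids switched. Fabp1 made up 99.9% to 99.98% of the pair with Fabp4 in liver and 0.0183% to 0.206% in visWAT. Fabp1 stood at 9905, 9689, 5485 and 10509 FPKM in liver and 0.305, 0.988, 0.401 and 2.07 FPKM in visWAT (log2 difference -12.20, SE 0.22, adjusted p = 1.6e-06). Fabp4 was at 1670.1, 1915, 2189.8 and 1003 FPKM in visWAT and 2.26, 1.78, 4.08 and 1.85 FPKM in liver (log2 difference 8.91, SE 0.18, adjusted p = 2.5e-06). Likewise the bile acid and fatty acid transporter Slc27a5 gave way to Slc27a1, whose log2 difference was 4.68. Hepatic lipase, Lipc, held 56.2% to 92.4% of the pair with Lpl in liver and 0.00289% to 0.0358% in visWAT, and the lowest of the liver shares was that of mouse 182.

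Sugar handling followed the same pattern in several pairs but not in all. The low-affinity transporter Slc2a2 made up 99.5% to 99.9% of the pair with the insulin-responsive transporter Slc2a4 in liver and 0.0838% to 0.186% in visWAT. Slc2a4 was at 61.1, 69.0, 161 and 42.8 FPKM in visWAT and 0.365, 0.107, 0.0555 and 0.454 FPKM in liver (log2 difference 5.91, SE 0.38, adjusted p = 0.00015). The liver pyruvate kinase gene Pklr had no read in any visWAT library, and its share of the pair with Pkm was 82.7% to 97.001% in liver. Fbp1, an enzyme of glucose synthesis, was at 602, 616, 769 and 615 FPKM in liver and at most 0.390 FPKM in visWAT. Glycogen synthase Gys2 held 98.7% to 99.5% of its pair in liver but ranged from 6.74% to 52.8% in visWAT, where mouse 182 was the highest.

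Not every pair separated. Among those of sugar handling, Pygl held 97.9% to 99.7% of the pair with Pygm in liver and 86.3% to 98.2% in visWAT, which overlapped. Pfkl held the majority of the pair with Pfkp in both tissues, at 87.6% to 95.9% in liver and 72.0% to 86.0% in visWAT. The share of Pnpla3 in the pair with Pnpla2 was 7.04% to 25.4% in liver and 28.4% to 35.5% in visWAT, so the form listed as hepatic was relatively more abundant in fat. Pnpla3 was at 229, 334, 437 and 236 FPKM in visWAT and 6.36, 2.90, 5.21 and 13.95 FPKM in liver (log2 difference 5.38, SE 0.43, adjusted p = 0.00033). The insulin receptor substrate Irs2 held 67.2% to 76.0% of the pair with Irs1 in liver and 71.9% to 91.7% in visWAT, and these ranges overlapped. Those of the adiponectin receptors overlapped as well, with Adipor2 at 77.1% to 86.1% in liver and 66.2% to 79.4% in visWAT. Adipor1 itself had overlapping levels of 26.0, 27.4, 30.4 and 26.1 FPKM in visWAT and 25.6, 27.1, 28.4 and 26.6 FPKM in liver (log2 difference 0.029, SE 0.09, adjusted p = 0.8). Scd1 made up 98.5% to 99.97% of the pair with Scd2 in liver and 97.6% to 99.1% in visWAT.

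Use of amino acids was strongly hepatic, with an exception for the branched-chain amino acids. Of 32 genes of amino acid catabolism, 31 were called higher in liver and 0 in visWAT, with a median of -6.19. In visWAT 19 of the 32 were under 1 FPKM in every library. Those passed the filter on low values largely through liver, so the count supports nothing by itself. Tat, which starts the breakdown of tyrosine, was at 1256, 1632, 1138 and 1890.1 FPKM in liver and 0.187, 0.0802, 0.246 and 0.434 FPKM in visWAT (log2 difference -10.20, SE 0.15, adjusted p = 9.4e-07). Mat1a, the methionine adenosyltransferase of hepatocytes, was at 923, 1014, 932 and 1061 FPKM in liver and had log2 difference -9.80, while its counterpart Mat2a was 2.54-fold higher in visWAT. Gnmt, a methyltransferase of glycine, was at 0.606, 0.986, 0.857 and 19.7 FPKM in visWAT, highest in mouse 183, the library with seminal vesicle transcripts.

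The urea cycle was nearly silent in fat. Cps1, its entry enzyme, was at 876, 1010.5, 1040.1 and 1031 FPKM in liver and 0.0607, 0, 0.0465 and 0.0823 FPKM in visWAT (log2 difference -9.88, SE 0.10, adjusted p = 7.7e-07). Ass1 was at 1219, 1550.5, 2450.2 and 1445 FPKM in liver and 1.09, 0.812, 0.719 and 7.95 FPKM in visWAT, where mouse 183 was again the highest. Of 12 genes of this list 10 were called higher in liver, and 1 higher in visWAT. In visWAT 7 of the 13 listed were under 1 FPKM in every library, so this count too supports nothing by itself. Breakdown of branched-chain amino acids, by contrast, had 3 genes called higher in visWAT and 7 higher in liver out of 23. Its median of -0.22 became 0.42 when rescaled to equal sums. Bcat2, which removes the amino group first, was at 55.4, 87.7, 65.4 and 58.5 FPKM in visWAT and 9.50, 9.90, 8.61 and 10.1 FPKM in liver (log2 difference 2.67, SE 0.14, adjusted p = 7.5e-05). Bckdk, the kinase that restrains the next step, was 5.13-fold higher in visWAT.

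Bile acid, sterol and drug metabolism lay on the liver side. Of 26 genes of bile acid synthesis and transport, 25 were called higher in liver, with a median of -5.59. In visWAT 21 of the 27 listed were under 1 FPKM in every library. Most tested members thus passed the filter on low values largely through liver, so the count supports nothing by itself. Slc10a1, which takes bile acids up from blood, was at 364, 364, 119 and 346 FPKM in liver, lowest in mouse 182, and at most 0.0639 FPKM in visWAT. Cyp27a1, a sterol hydroxylase, was also read in visWAT, at 35.2, 22.5, 18.3 and 24.2 FPKM against 368, 441, 221 and 400.5 FPKM in liver. For cholesterol synthesis 20 of 24 genes were called higher in liver and 0 in visWAT, with a median of -2.57.

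Among 46 tested of 51 listed cytochrome P450 genes of foreign compounds, 36 were called higher in liver and 5 higher in visWAT. In visWAT, 35 of the 51 were under 1 FPKM in every library, so many passed the filter on low values largely through liver. Cyp3a11 was at 401, 445, 1152 and 331 FPKM in liver, highest in mouse 182, and at most 0.0769 FPKM in visWAT. Cyp2e1, the ethanol-oxidizing enzyme often used as a hepatocyte marker, was abundant in fat, at 882, 1956, 954 and 840.3 FPKM in visWAT and 4187, 4088, 1366 and 4196 FPKM in liver. These ranges overlapped, since the liver of mouse 182 was lower than the visWAT of mouse 180 (log2 difference -1.54, SE 0.40, adjusted p = 0.02). Cyp2e1 was no longer called without mouse 165, 180 or 183 (adjusted p = 0.098, 0.061 and 0.062) or when rescaled to equal sums. Cyp1b1 and Cyp4b1 were called higher in visWAT, at 5.93, 5.94, 6.63 and 4.73 FPKM and 38.1, 44.0, 24.6 and 20.2 FPKM. Sult1e1, the estrogen sulfotransferase, was the only one of 23 conjugating enzymes of the list called higher in visWAT, at 37.2, 34.5, 8.80 and 37.7 FPKM against 0, 0.0430, 0.272 and 0.0454 FPKM (log2 difference 4.62, SE 0.43, adjusted p = 0.00054).

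Protection against peroxide was divided by gene. Gstm1, the most abundant glutathione transferase of the list in liver, was at 2494, 2168, 2510.2 and 2517 FPKM there and 256, 237, 241 and 205 FPKM in visWAT. Gpx3, the glutathione peroxidase of plasma, was at 761, 526, 205 and 414 FPKM in visWAT and 5.13, 4.06, 14.1 and 5.82 FPKM in liver (log2 difference 5.84, SE 0.55, adjusted p = 0.00058). Mgst2 was at 4.995, 6.93, 14.7 and 3.31 FPKM in visWAT and at most 0.0305 FPKM in liver. Of 29 glutathione genes, 22 were called higher in liver and 5 higher in visWAT. Iron genes were mostly higher in liver, 12 of 17 against 4 in visWAT, and so were those of retinoids, 13 of 19 against 3. Hamp, the hormone hepcidin that limits iron export, was at 1047, 897, 1254 and 1262 FPKM in liver and at most 0.478 FPKM in visWAT. Heph, a membrane ferroxidase, ran the other way, at 11.3, 11.3, 7.55 and 9.14 FPKM in visWAT and 0.174, 0.139, 0.693 and 0.236 FPKM in liver.

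Ketone bodies are made in liver and used elsewhere. Oxct1, which is needed to use ketone bodies, was at 51.7, 46.0, 53.9 and 51.6 FPKM in visWAT and 1.18, 0.794, 3.16 and 1.36 FPKM in liver (log2 difference 4.38, SE 0.19, adjusted p = 3.4e-05). Of 20 genes of fatty acid oxidation and ketones, 15 were called higher in liver and 1 in visWAT, with a median of -1.26. Rescaled to equal sums, 8 were called higher in liver and 1 in visWAT, with a median of -0.62. All 15 of 15 peroxisomal genes were called higher in liver. Cat, catalase, was at 1839, 1843, 1149 and 1817 FPKM in liver and 226, 263, 331 and 160.4 FPKM in visWAT.

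Respiratory chain genes lay close to the median gene. Of 77 nuclear genes of oxidative phosphorylation, 32 were called higher in liver and 1 in visWAT, with a median of -0.50. Calls rose to 61 without mouse 182 and fell to 20 without mouse 183. The direction depended on the scaling: rescaled to equal sums, the median was 0.14, with 6 genes called higher in visWAT and 1 higher in liver. The 13 mitochondrially encoded genes behaved alike, with 2 called and a median of -0.38 that became 0.27 when rescaled. The gene called higher in visWAT was Cox8b, a muscle and brown fat form of a cytochrome oxidase subunit, at 15.3, 63.6, 268 and 13.2 FPKM in visWAT, highest in mouse 182, and 0.336, 0.297, 0 and 0.157 FPKM in liver (log2 difference 5.23, SE 0.80, adjusted p = 0.0032).

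Genes of fatty acid synthesis varied widely among the visWAT libraries. Of 16 genes of de novo lipogenesis, 2 were called higher in visWAT and 3 higher in liver, and the median of 0.18 turned to -0.27 without mice 182 and 183. Rescaled to equal sums, 7 were called higher in visWAT and 3 higher in liver, with a median of 0.77. Fasn, fatty acid synthase, was at 446, 725, 2839 and 311 FPKM in visWAT and 221, 158, 127 and 324 FPKM in liver, overlapping ranges in which the visWAT of mouse 182 was far above all others (log2 difference 1.91, SE 0.75, adjusted p = 0.073). Scd1, the main desaturase, was at 6047, 8395, 19897 and 3692 FPKM in visWAT and 7348, 5723, 8039.9 and 9025 FPKM in liver (log2 difference 0.072, SE 0.53, adjusted p = 0.91), which also overlapped. Scd2 was at 56.3, 84.1, 491 and 84.4 FPKM in visWAT and 2.60, 1.69, 123 and 2.65 FPKM in liver, where mouse 182 again stood apart and overlapped the lower visWAT values. Scd2 was called higher in visWAT with adjusted p = 0.0018, and with a log2 difference of 4.51 without that mouse. Acaca, which makes malonyl-CoA, was called higher in visWAT at 37.3, 53.9, 184 and 21.8 FPKM against 13.9, 10.6, 12.04 and 13.8 FPKM, but not without mouse 180 (adjusted p = 0.076).

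**Figure D3:**
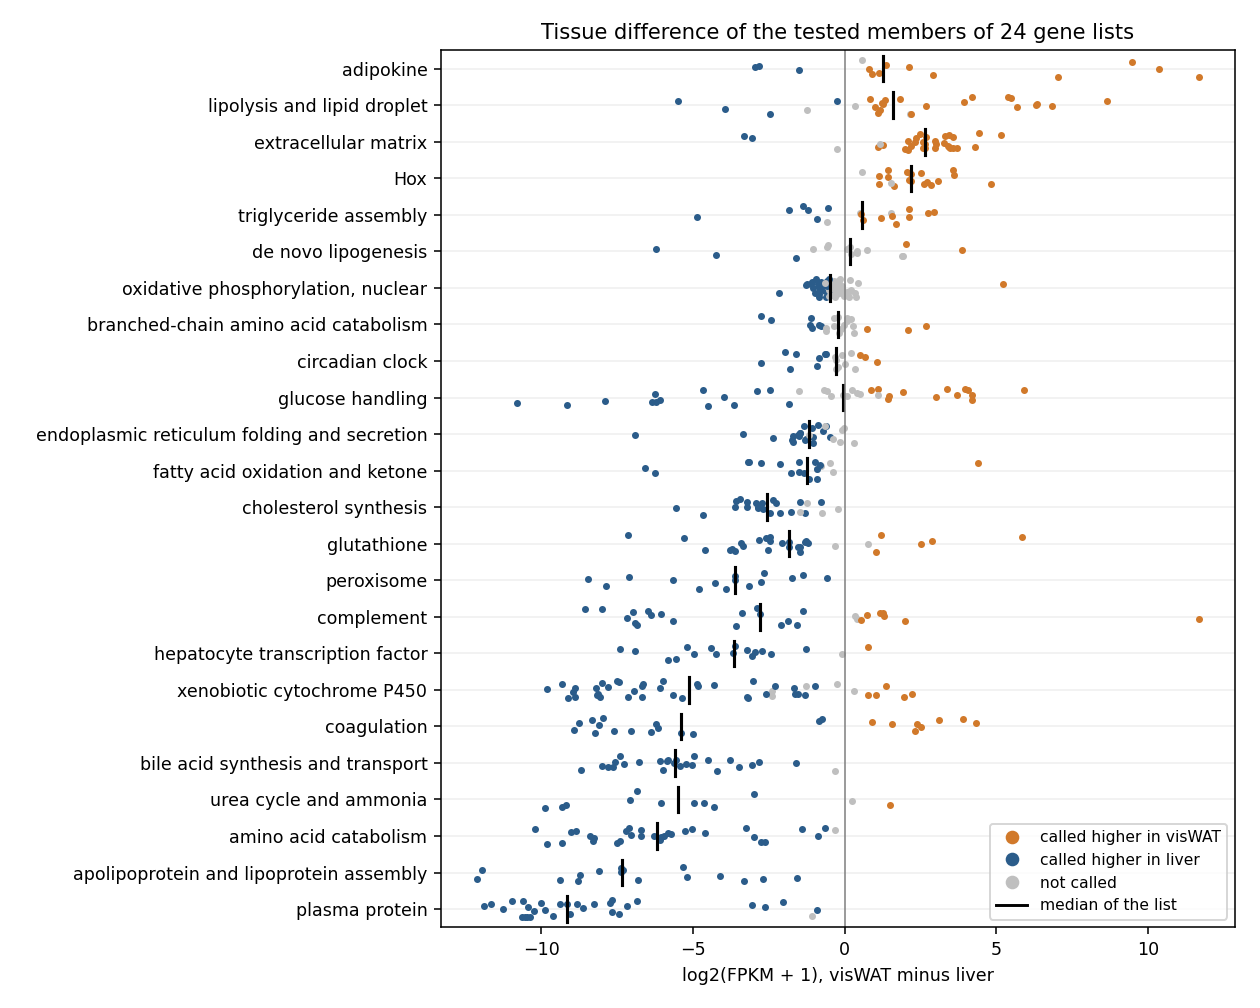
log2 difference of log2(FPKM + 1), visWAT minus liver, for each tested member of 24 gene lists in the WT NCD mice. Each point is a gene, colored where it was called, and the black bar is the median of the list, from -9.15 for plasma proteins to 2.66 for extracellular matrix. The medians of branched-chain amino acid catabolism, glucose handling, nuclear oxidative phosphorylation and circadian clock changed sign when rescaled to equal sums, with or without the seminal vesicle genes, and that of de novo lipogenesis without mice 182 and 183.

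Receptors and growth factor binding proteins also marked the tissues. Of 29 genes of a list of hormone receptors and related genes, 9 were called higher in visWAT and 15 higher in liver. That list also holds the hormone gene Fgf21 and the enzyme genes Hsd11b1, Dio1, Srd5a1 and Srd5a2, all among those called higher in liver. Of 20 genes of the insulin, growth hormone and IGF system, 8 were called higher in visWAT and 7 higher in liver. Gcgr, the glucagon receptor, was at 130.4, 128, 98.2 and 126 FPKM in liver and 0.665, 0.674, 0.676 and 0.598 FPKM in visWAT (log2 difference -6.19, SE 0.11, adjusted p = 1.5e-06). Fgfr4, the receptor for the bile acid signal of the gut, held 94.3% to 96.6% of the pair with Fgfr1 in liver and at most 0.385% in visWAT. Npr3, which clears natriuretic peptides, was at 67.4, 35.7, 30.6 and 34.8 FPKM in visWAT and 0.232, 0.188, 0.791 and 0.312 FPKM in liver (log2 difference 4.91, SE 0.27, adjusted p = 8.5e-05). Ptger3, a prostaglandin E receptor that restrains lipolysis, was at 6.98, 11.98, 31.3 and 9.43 FPKM in visWAT and at most 0.0213 FPKM in liver. Igfbp1, an IGF-binding protein under insulin control, had no read in visWAT and was at 84.0, 113, 194 and 96.7 FPKM in liver. Igfbp2 was at 416, 519, 529.9 and 387 FPKM in liver and 2.86, 1.84, 4.997 and 46.0 FPKM in visWAT, highest in mouse 183.

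Hox genes carry positional identity from development. Of 39 listed Hox genes, 19 passed the filter on low values, 17 were called higher in visWAT and 0 in liver. A Hox gene silent in liver passes this filter only through its level in fat, so the count supports nothing by itself. The summed FPKM over all listed Hox genes was 106 to 165 in visWAT and 1.97 to 4.11 in liver. In mouse 183, the library with seminal vesicle transcripts, Hoxb8 was at 17.01 FPKM against at most 2.29 in the other visWAT libraries, Hoxb9 at 11.3 against at most 1.06, and Hoxd13 at 4.05 against 0 (these 3 chosen after their values were seen). Hoxc8 was at 29.3, 32.0, 29.0 and 19.7 FPKM in visWAT and had no read in liver (log2 difference 4.81, SE 0.14, adjusted p = 7.8e-06). Hoxd8 and Hoxc6 were at 11.6, 12.4, 8.91 and 13.7 FPKM and 10.8, 13.4, 13.1 and 8.30 FPKM in visWAT. Neither passed 0.1002 FPKM in any liver library.

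Matrix genes were higher in fat. Of 33 extracellular matrix genes 29 were called higher in visWAT and 2 higher in liver, with a median of 2.66. Sparc, a collagen-binding protein, was at 485, 442, 513 and 318 FPKM in visWAT and 15.5, 11.9, 48.7 and 13.95 FPKM in liver (log2 difference 4.44, SE 0.31, adjusted p = 0.00019). Col4a1, of the basement membrane around each adipocyte, was 11.7-fold higher in visWAT. Those higher in liver were Col18a1, at 230.2, 220.5, 182 and 215 FPKM in liver and 29.6, 18.9, 16.5 and 18.8 FPKM in visWAT, and Fn1, fibronectin, 8.48-fold lower in visWAT. Markers of fibroblasts and adipose progenitors had 14 of 15 genes called higher in visWAT, and the share of fibroblasts in each tissue was not tested. Dpp4, which marks progenitors in fat and is also made by liver cells, was called higher in liver, at 23.8, 21.02, 16.3 and 23.2 FPKM against 3.18, 1.77, 3.08 and 10.6 FPKM.

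Mlkl, the pore-forming effector of necroptosis that the study deleted in adipocytes, did not pass the test between the tissues of WT mice. It was at 5.11, 4.63, 2.29 and 3.91 FPKM in visWAT and 2.44, 2.18, 4.19 and 2.89 FPKM in liver (log2 difference 0.33, SE 0.27, adjusted p = 0.33). The ranges overlapped, since mouse 182 had the lowest visWAT and the highest liver value. Without it the log2 difference was 0.66 with adjusted p = 0.014, so the outcome of the test turned on mouse 182, and Mlkl was also called higher in visWAT when rescaled to equal sums. In the Mlkl Adi-KO NCD mice Mlkl ranged from 1.96 to 2.49 FPKM in visWAT and from 1.62 to 3.94 FPKM in liver. Among the 9 genes of this route, 2 were called higher in visWAT and 2 higher in liver, with a median of -0.051, but rescaled to equal sums 4 and 0, with a median of 0.58.

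Mouse 182 differed from the other 3 in chosen genes of both tissues, and the genes of this paragraph were chosen after their values were seen. Of 3994 genes with a mean of at least 10 FPKM in liver, 28 were over 10 times lower in mouse 182 than in every other mouse and 6 over 10 times higher, against at most 2 in either direction in any other mouse. Major urinary proteins, pheromone carriers that male mouse liver makes in bulk, were among them. Mup7 was at 1536, 1712, 1.31 and 2484 FPKM in liver, and Mup3 at 7066, 7439.9, 509 and 6641 FPKM. All 17 called of 18 tested major urinary protein genes were higher in liver, and without mouse 183 6 were called. In visWAT, 20 of the 22 listed were under 1 FPKM in every library. Those tested passed the filter on low values largely through liver, so the count supports nothing by itself. These genes are near-identical copies, so the counting may have split their reads.

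Other genes that differ between the sexes in mouse liver moved with them. Hsd3b5 and Slco1a1, which are known as male-predominant, were at 88.6, 103, 0.125 and 83.5 FPKM and 126, 136, 1.47 and 117 FPKM in liver. Hsd3b5 was no longer called without mouse 165, 180 or 183 (adjusted p = 0.068, 0.067 and 0.059). Cyp2a4 and Cyp2b9, known as female-predominant, were at 0.626, 0.461, 267 and 0.227 FPKM and 1.87, 1.20, 112 and 0.120 FPKM. The tissue difference of Cyp2a4 and Cyp2b9 was not called (adjusted p = 0.2 and 0.12). The Y-linked gene Ddx3y was read in all 4 livers, at 19.98, 18.1, 16.97 and 18.9 FPKM, and Xist was at 0.0168, 0.00298, 0.00538 and 0.00629 FPKM. Spp1, osteopontin, was at 33.1, 18.0, 147 and 26.3 FPKM in liver, where mouse 182 was the highest.

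In visWAT the same count did not set mouse 182 apart. Of 3445 genes with a mean of at least 10 FPKM, 3 were over 10 times higher in mouse 182 and 2 over 10 times lower. The counts were 32 and 0 in mouse 183, 0 and 3 in mouse 180, and 0 and 2 in mouse 165. Lipogenic genes were high in the visWAT of mouse 182. Acly, which makes cytosolic acetyl-CoA, was at 109, 136, 1407 and 85.0 FPKM in visWAT, Elovl6, a fatty acid elongase, at 7.42, 21.5, 286 and 7.89 FPKM, and Me1, malic enzyme, at 137, 231, 1436 and 96.6 FPKM. Nnat, neuronatin, was at 704, 506, 2.20 and 528 FPKM and so far lower in mouse 182 than in the other mice, and it was no longer called without mouse 165 or 180 (adjusted p = 0.056 and 0.056). The levels of Acly, Elovl6 and Me1 in visWAT overlapped those in liver, which were 195, 130.0, 196 and 229 FPKM, 42.9, 29.2, 38.1 and 42.8 FPKM and 248, 186, 132 and 239 FPKM, and none of these genes was called. What sets mouse 182 apart was not tested.

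**Figure D4:**
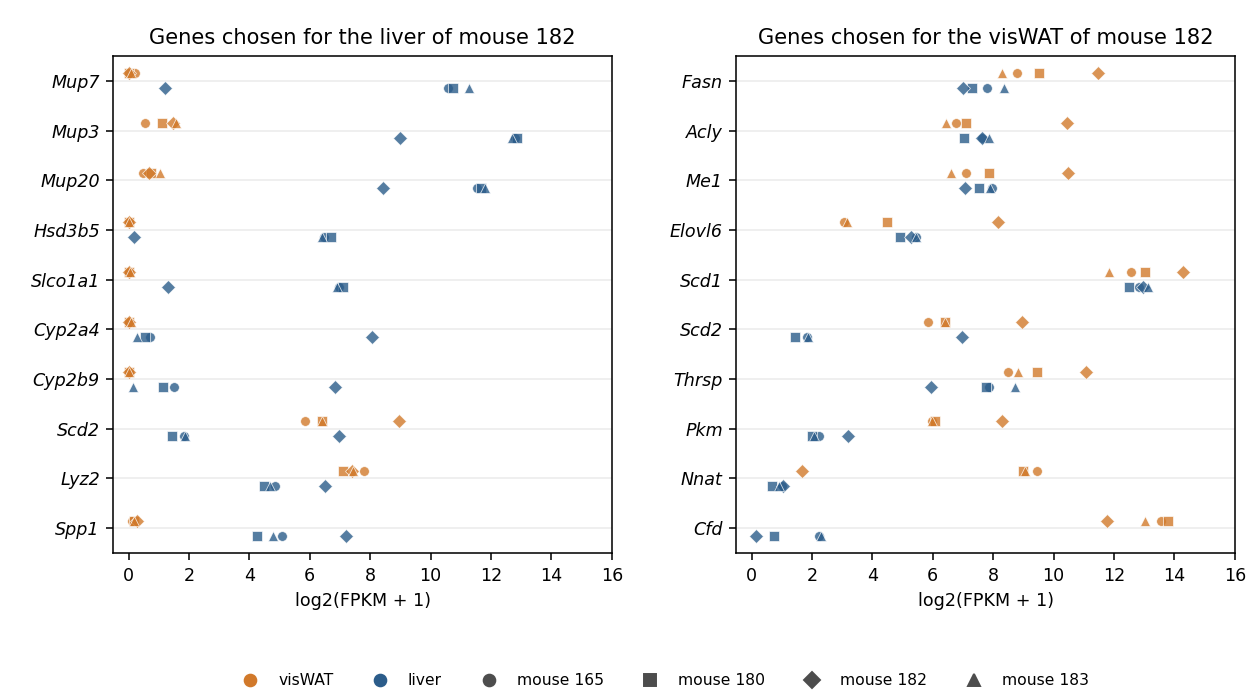
Level of 10 genes chosen for the liver (left) and 10 chosen for the visWAT (right) of mouse 182, as log2(FPKM + 1) in the 8 WT NCD libraries, with color for tissue and diamonds for mouse 182. The liver of mouse 182 had 0.125 FPKM of Hsd3b5 against at least 83.5 in the others, and its visWAT 1407 FPKM of Acly against at most 136.

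The counts of tissue differences were taken again without these mice. The count of calls went from 8989 to 9511 without mouse 182, to 8069 without mouse 183 and to 9949 without both. At 4-fold these counts were 1905, 2031, 1901 and 2123. All 12 mature adipocyte markers and all 14 hepatocyte markers were still called without both mice. Without mouse 183 alone, and when rescaled to equal sums, 13 of the 14 hepatocyte markers were called, with Cyp2e1 lost.

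The tissue difference recurred in other animals. Of 14441 genes tested in the 4 mice of the other genotype, 11100 (76.9%) were called, 36.8% higher in visWAT and 40% higher in liver. In all, 8592 genes were called in the same direction in both genotypes, which is 95.6% of the WT calls and 77.4% of the Mlkl Adi-KO calls. None was called in opposite directions. The 4-fold rule called 14.5% of the genes tested in the Mlkl Adi-KO mice, 6.32% higher in visWAT and 8.13% higher in liver. At 4-fold 1813 were shared, 95.2% and 86.9% of the calls. Adipoq had a log2 difference of 10.55 and Alb of -11.30 in the Mlkl Adi-KO mice. Mup7, which was near 0 in the liver of mouse 182, ranged from 457 to 1709.9 FPKM in their livers, and Nnat from 416 to 799 FPKM in their visWAT.

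**Figure D5:**
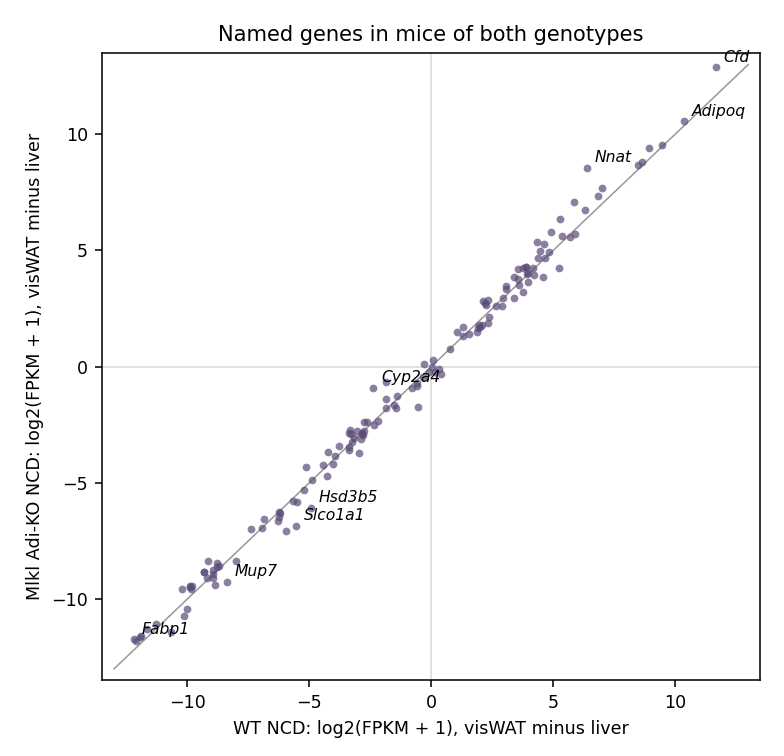
log2 difference of log2(FPKM + 1), visWAT minus liver, of the genes named in the text in WT NCD mice (x axis) and in Mlkl Adi-KO NCD mice (y axis), with the line of equality. Both axes rest on 4 other mice each, and the points follow the line, with Nnat at 6.38 in WT and 8.55 in Mlkl Adi-KO mice.

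No tissue difference was found to depend on genotype. The interaction of tissue and genotype over the 16 NCD libraries was called by limma for 0 of 14506 genes, with 573 at an unadjusted p under 0.05, and no other tool was run on it. For Mlkl the interaction was -0.45 on the log2 scale with adjusted p = 0.95.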

How the data were processed

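RNA-seq of polyA RNA from visWAT and liver was aligned by the authors to mm39 with HISAT2 and counted with featureCounts 1.5.0-p3, per the labels and the methods. Strand setting and annotation release are not given in the sources used here. The authors deposited FPKM, on library sizes they do not state, for all 56748 genes, and read counts for the NCD libraries beside their own NCD comparisons. Those deposited counts gave the size behind each FPKM column, and whole reads were recovered for 100% of values within 0.01 reads. Columns of the authors' fold changes and p-values were not used, nor were 32 columns of sample values.

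Tissues were compared with limma 3.58.1 in R 4.3.3 on log2(FPKM + 1) with empirical Bayes trend and the mouse as a block, over genes with a mean of at least 0.5 FPKM, with Benjamini-Hochberg adjustment, tested first on simulated data. edgeR 4.0.16 (quasi-likelihood) and DESeq2 1.42.0 on the recovered reads, other pseudocounts, filters and scalings, and the removal of each mouse were alternatives. Within a tissue, samples are separate animals by their labels, and no pair of libraries of a group agreed within sampling noise (at least 12.1 of chi-square per gene). The pairing rests on the mouse numbers in the labels: same-mouse deviations from the tissue means correlated at -0.0513 to 0.0589 in WT and 0.00899 to 0.0973 in Mlkl Adi-KO mice. The highest correlation with the liver of another mouse was 0.0353 to 0.0751 in WT and 0.0112 to 0.0461 in Mlkl Adi-KO mice. It was above the same-mouse value in WT mice 180, 182 and 183 and in Mlkl Adi-KO mouse 179, so these correlations do not show the pairing. Symbols with several identifiers were read from the lowest identifier. Members, gene lists and pairs were chosen from general knowledge with earlier results of these data known. Named were the paired genes, up to 4 of the most abundant and 2 opposite members of each list, the 6 called genes of largest difference in each direction at a mean of at least 10 FPKM (without predicted genes, seminal vesicle and epididymis genes and genes over 10 times higher in a single visWAT library), and Mlkl. Some genes and sequences are not reported here. Hsd3b5, Slco1a1, Cyp2a4, Cyp2b9, Acly, Elovl6, Nnat, Gm5540, Hoxb8, Hoxb9, Hoxd13, Ddx3y and Xist were named after their values were seen.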

Additional observations from a re-analysis of the deposited data

Results flagged for a closer look

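Over 267 groups of 4 libraries (the named genes in each tissue where they averaged 0.5 FPKM or more, and the summed marker lists), 63 held a value whose gap to its neighbor, divided by the range, passed Dixon's limit for 4 values. About 1 group in 20 passes this limit by chance if groups are independent, normal and not picked by value. That rate is no expectation here: Slco1a1, Cyp2a4, Cyp2b9, Acly and Elovl6 were named after their values were seen. Seminal vesicle genes and sums over named genes are among the groups too. Of these 33 were the liver and 10 the visWAT of mouse 182, and 14 the visWAT of mouse 183. All values in parentheses are FPKM.

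The liver of mouse 182 lay below the other livers in Car3 (496), Fabp1 (5485), Slc27a2 (327), Pck1 (1102), Dgat2 (128), Cebpa (164) and Apoa2 (9979). Its level was also low for Apoe (11783), Slc10a1 (119), Scp2 (1086), Cat (1149), Cyp2e1 (1366), Ugt2b5 (309.8) and Mup3 (509). Lower there as well were Gcgr (98.2), P4hb (539), Fn1 (114), Slco1a1 (1.47) and the summed mature adipocyte markers (516). It lay above the other livers in Lpl (39.3), Scd2 (123), Pkm (8.21), Fbp1 (769), Cyp3a11 (1152), Sparc (48.7) and Col4a1 (19.4). Higher in that liver too were Lyz2 (89.4), Spp1 (147), Krt19 (3.98), Cyp2a4 (267), Cyp2b9 (112), the summed fibroblast and adipose progenitor markers (165) and the summed cholangiocyte markers (178).

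The visWAT of mouse 182 lay above the others in Fasn (2839), Me1 (1436), Scd2 (491), Pkm (311), Ldha (461), Ebp (19.6) and Sc5d (100.2). Higher there as well were Acly (1407) and Elovl6 (286). It lay below them in Sult1e1 (8.80).

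The visWAT of mouse 183, which carried the seminal vesicle transcripts, lay above the others in Ass1 (7.95), Gnmt (19.7), Igfbp2 (46.0), P4hb (246), Herpud1 (71.7), Dpp4 (10.6) and Acta2 (323). That library was also high for Krt19 (43.5), Svs5 (151244), Semg1 (36638), the summed stellate and mural markers (603), the summed cholangiocyte markers (82.9) and the summed seminal vesicle markers (335513). It lay below them in Gcgr (0.598).

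Single values elsewhere were Cyp2e1 in the visWAT of mouse 180, high at 1956, Gstm1 in the liver of mouse 180, low at 2168, Npr3 in the visWAT of mouse 165, high at 67.4, Upk3b in the visWAT of mouse 180, low at 11.3, Upk3b in the liver of mouse 165, high at 0.719 and the summed hepatocyte markers in the visWAT of mouse 180, high at 1978. What these libraries share was not tested.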

How the results depend on the processing

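The count of genes called, 8989, stayed within 1.5 times under every alternative, from 6640 to 9511 when each mouse was left out, 8913 with edgeR and 9432 with DESeq2. Direction depended on the scaling: against 4327 higher in visWAT and 4662 higher in liver, equal sums gave 5705 and 2151, and equal sums without seminal vesicle genes 9017 and 2083. The 4-fold counts of 1905 in all, 774 higher in visWAT and 1131 higher in liver became 3800, 2048 and 1752 with edgeR, 3818, 2034 and 1784 with DESeq2 and 3568, 1830 and 1738 with a pseudocount of 0.1. Equal sums gave 3068 in all and 1934 higher in visWAT, and without seminal vesicle genes 3489 and 2434.

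Without the replicate block 9527 genes were called in WT and 11251 in Mlkl Adi-KO mice, against 8989 and 11100, and 0 interactions, so the pairing by mouse moved no count by over 1.5 times. Leaving out each mouse gave 0 to 1 interactions, the predicted gene Gm5540 without mouse 182. The liver share was higher in every liver in 20 of 28 pairs and in 20 by reads.

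Of 147 named genes 115 kept their direction and their side of the threshold under every alternative, and those that changed sign were not called to begin with, the causes not tested. Scd1, at 0.072, was -0.34 to 0.53 when each mouse was left out. Me1, at 0.40, was -0.27 without mice 182 and 183 and -0.61 to 0.97 when each mouse was left out. Xbp1, at -0.10, was 0.54 with equal sums and 0.86 with equal sums without seminal vesicle genes. Ldha, at -0.59, was 0.056 with equal sums and 0.38 with equal sums without seminal vesicle genes. Adipor2, at -0.80, was 0.17 with equal sums without seminal vesicle genes. Cox6a1, at -0.35, was 0.30 with equal sums and 0.62 with equal sums without seminal vesicle genes. mt-Co1, at -0.56, was 0.086 with equal sums and 0.41 with equal sums without seminal vesicle genes. Nr1d1, at -0.28, was 0.36 with equal sums and 0.68 with equal sums without seminal vesicle genes. Acly, at 0.16, was -0.38 without mice 182 and 183 and -0.73 to 0.69 when each mouse was left out. Elovl6, at -0.56, was 0.047 with equal sums, 0.36 with equal sums without seminal vesicle genes and -1.70 to 0.051 when each mouse was left out. Calls of named genes lost without a mouse are given beside the results, except that Krt19 was lost without mouse 165 (adjusted p = 0.079), Gpam without mouse 165, 180 or 183 (adjusted p = 0.12, 0.054 and 0.07) and Igkc without mouse 165, 180 or 183 (adjusted p = 0.11, 0.094 and 0.076). With no filter on low values, calls were lost for Apoe, Trf, Car3, Cyp2e1, Cebpa, Gpam, Igkc and Krt19 (adjusted p from 0.051 to 0.26). In genes near the floor the fold is limited by depth.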

Other observations

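Markers of other cell types differed by tissue. In visWAT, 8 of 8 tested mesothelium, 11 of 12 endothelium and 12 of 15 macrophage markers were called higher, beside 29.8% of all tested genes. Of the 10 listed mesothelium genes, 7 were under 1 FPKM in every liver library. Those tested passed the filter on low values largely through fat, so the mesothelium count supports nothing by itself. Upk3b, of the mesothelial lining of the fat pad, was at 27.5, 11.3, 25.8 and 25.2 FPKM in visWAT and 0.719, 0.605, 0.615 and 0.623 FPKM in liver, and Cldn5, of tight endothelial junctions, at 107, 156, 68.2 and 72.2 and 4.52, 5.32, 5.69 and 4.78 FPKM. In liver, 7 of 8 sinusoidal endothelium and 5 of 7 Kupffer cell markers were called higher, beside 32.1% of all tested genes. In each of these lists 1 marker was called higher in visWAT instead. In visWAT, 5 of the 8 sinusoidal and 4 of the 7 Kupffer cell markers were under 1 FPKM in every library. Those passed the filter on low values largely through liver, so these 2 counts support nothing by themselves. Clec4f, of Kupffer cells, was at 24.4, 18.9, 12.9 and 19.1 FPKM in liver and had a read in a single visWAT library, and Clec4g, of sinusoidal endothelium, was at 19.0, 19.0, 11.7 and 16.7 FPKM in liver and at most 0.0914 FPKM in visWAT. Lyz2, a general macrophage gene, was 4.29-fold higher in visWAT, with the liver of mouse 182, at 89.4 FPKM, above the other livers.

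Genes of protein folding and secretion in the endoplasmic reticulum had 20 of 27 members called higher in liver and 0 in visWAT, with a median log2 difference of -1.17, and 9 and 1 when rescaled to equal sums. P4hb, which forms disulfide bonds, was at 630.1, 624, 539 and 639 FPKM in liver and 106, 83.6, 88.5 and 246 FPKM in visWAT, where mouse 183 was the highest. Herpud1, of the degradation route for misfolded proteins, was 9.24-fold lower in visWAT. Clock genes were near the median gene: 3 of 19 were called higher in visWAT and 8 higher in liver, and the median of -0.28 became 0.23 when rescaled. Nr1d1, a core repressor of the clock, was at 56.0, 61.1, 49.8 and 43.8 FPKM in visWAT and 64.2, 64.4, 50.5 and 79.9 FPKM in liver (log2 difference -0.28, SE 0.17, adjusted p = 0.21), overlapping ranges, while Bhlhe40 was 7.22-fold lower in visWAT.

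Rbp7, a retinol-binding protein of fat and its vessels, was at 57.1, 62.3, 59.4 and 33.8 FPKM in visWAT and had a read in the liver of mouse 182 alone. Car3, a carbonic anhydrase that makes up much of the protein of fat cells, was also abundant in liver, at 3876, 4459, 3150.2 and 2958 and 847, 904, 496 and 898 FPKM.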
